A study of Mus musculus with 24 samples.

Results

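The transcriptome of the mouse distal convoluted and connecting tubule was compared between the hours around lights on and the hours around lights off. Of the 24 arrays of the series, 8 entered this comparison. The lights-on side held the 4 arrays of zeitgeber time (ZT, hours after lights on) 20 and ZT 0, and the lights-off side held the 4 arrays of ZT 8 and ZT 12. All 18194 measured genes were tested. Each gene was represented by the probe set that names that gene alone and has the highest mean over the 24 arrays. The 2 times of a side were kept as separate groups, so the change between them was not counted as error.

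All groups were untreated male C57BL/6J mice, with no transgene or deletion named in the labels, and their age is not given in the sources used here. The animals lived under a cycle of 12 h light and 12 h dark, and sampling took place every 4 h. DCT/CNT denotes distal convoluted tubules (DCT) and connecting tubules (CNT) dissected together from the collagenase-treated left kidney, and CCD denotes cortical collecting ducts, a later segment taken in the same way. Each array carried 1 of 2 RNA pools of a segment and time, and each time drew on 5 animals. The labels do not say whether the 2 pools of a time came from separate animals. The error behind each p-value is thus that between pools, and it may be technical. Values are log2 intensities from 1 probe set, so they were compared between arrays and never between genes.

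The circadian clock is a feedback loop of transcription factors that runs in almost every cell. BMAL1 (gene Arntl) pairs with CLOCK or NPAS2 and activates genes through a DNA motif called the E-box, among them the Per and Cry genes, whose proteins inhibit the pair. The same pair activates Nr1d1 and Nr1d2, which encode the REV-ERB repressors. These compete with the ROR activators at a further motif, the ROR element, and so time Arntl itself. The PAR bZIP factors DBP, TEF and HLF and their repressor NFIL3 share the D-box motif and pass the rhythm on to output genes. The distal nephron fine-tunes the excretion of sodium, potassium, calcium and water under aldosterone, vasopressin and parathyroid hormone, and urinary excretion of these solutes follows the time of day.

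The tissue label was checked against defining markers. Slc12a3, the thiazide-sensitive sodium-chloride cotransporter of the DCT, ranged from 9.29 to 12.08 on the 8 DCT/CNT arrays and from 4.48 to 5.75 on the 8 CCD arrays of the same times. Aqp2, the water channel of principal cells, ranged from 7.76 to 8.12 on the DCT/CNT arrays and from 9.98 to 10.59 on the CCD arrays. Neither pair of ranges overlapped. Markers of the thick ascending limb, which was not dissected, were also measured. Umod ranged from 10.83 to 11.96 on the DCT/CNT arrays and from 8.54 to 10.96 on the CCD arrays. Slc12a1 ranged from 7.07 to 8.95 and from 5.23 to 7.66. Signal of that segment was thus present in the DCT/CNT pools, with ranges that reached higher than in CCD. Slc12a3 was uneven between the DCT/CNT pools. Slc12a3 measured 11.38 and 10.78 in the ZT 20 pools, 11.88 and 9.29 in the ZT 0 pools, 9.61 and 9.44 in the ZT 8 pools and 11.32 and 12.08 in the ZT 12 pools. It was low on both ZT 8 arrays and on 1 ZT 0 array. Pvalb (parvalbumin, a protein of the early DCT) was low on the same 3 arrays, at 6.17, 6.20 and 6.33, and lay between 8.65 and 9.99 on the other 5. The proximal tubule list, 22 measured genes of a segment that was not dissected, had a mean between 6.75 and 7.95 on the lights-on side. On the lights-off side that mean was 6.80 and 6.78 at ZT 8 and 8.20 and 8.24 at ZT 12. Slc12a3 and the proximal tubule list were thus both lower at ZT 8 than at ZT 12, within the lights-off side. In pooled tissue, fewer cells of a type and less RNA per cell cannot be told apart.

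**Figure D1:**
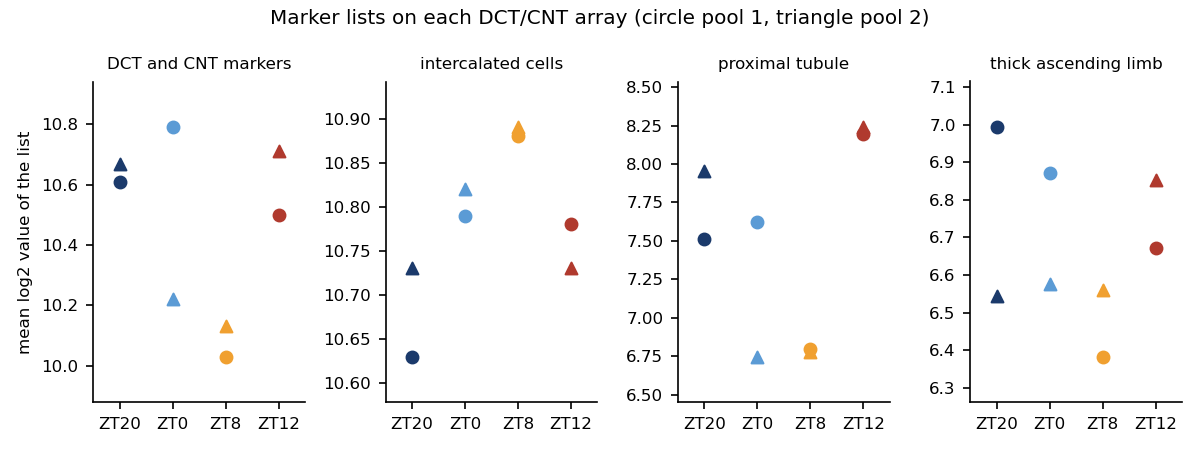
Mean log2 value of 4 marker lists (vertical axes, each with its own range) on the 8 DCT/CNT arrays, by zeitgeber time (horizontal axis); circles are pool 1 and triangles pool 2. The proximal tubule list sits at 6.80 and 6.78 at ZT 8 and at 8.20 and 8.24 at ZT 12, and the DCT and CNT list is also lower at ZT 8 than at ZT 12.

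Between the sides, 22 of 18194 genes passed limma at a Benjamini-Hochberg adjusted p under 0.05, which is 0.121% of all genes. Of these, 11 were higher at lights on (0.0605%) and 11 were lower (0.0605%). By size, the genes lower at lights on were led by the clock output gene Dbp, its neighbour Sphk2 and the REV-ERB genes Nr1d2 and Nr1d1, and those higher by Arntl, Cry1 and Tfrc. None of the 22 overlapped between the 4 arrays of one side and the 4 of the other. Over all genes, 1182 (6.5%) did not overlap, 687 of them higher at lights on (3.78%) and 495 lower (2.72%). An unadjusted p under 0.05 was reached by 1935 genes (10.6%), and the median difference over all genes was 0.01 on the log2 scale.

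The count moved with the number of arrays in the fit. With all 24 arrays in the fit, and the same contrast, 438 genes passed (2.41%), 254 higher and 184 lower, and these included 21 of the 22. Leaving out any 1 of the 8 arrays gave 4 to 9 calls. It gave 4 without ZT 20 pool 1 or ZT 0 pool 2, 5 without ZT 20 pool 2, ZT 0 pool 1 or ZT 12 pool 2, 8 without ZT 8 pool 1 or ZT 12 pool 1, and 9 without ZT 8 pool 2. In these 8 fits the differences of the 22 genes stayed within 0.898 and 1.10 times their values from all 8 arrays. Leaving out a whole time moved some of them further, and without ZT 12 that of Dnm3 was 0.236 times as large. Dbp, Sphk2, Nr1d1 and Nr1d2 passed in each fit that left out an array or a time, added the pool number or added a marker covariate. With the mean of Slc12a3 and Pvalb as a covariate, 9 genes passed, all among the 22. The differences of the 22 were 0.968 to 1.06 times the values without it. Each time kept its own mean in the covariate fits, so a covariate was fitted only to the gap between pools of a time. Such fits leave the differences little room to move. Whether uneven marker content of the pools shaped the differences was not tested.

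**Figure D2:**
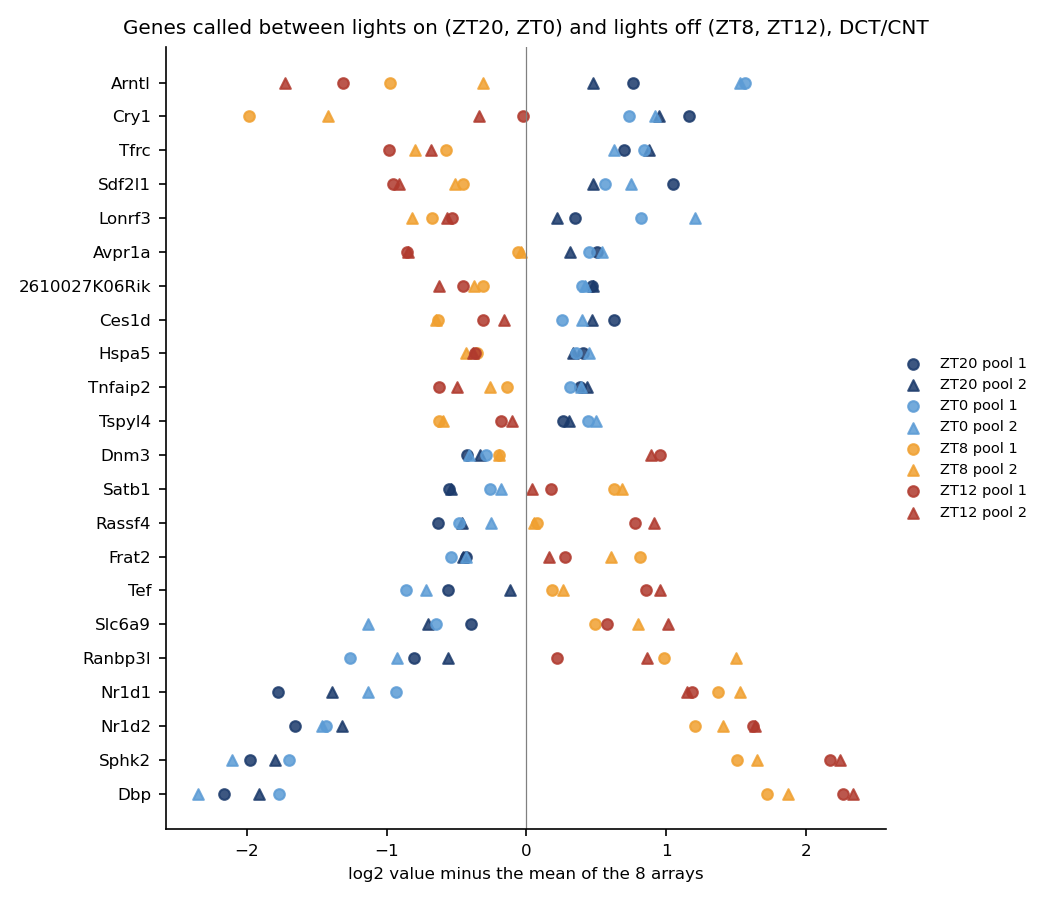
Log2 value of each of the 22 genes on each of the 8 DCT/CNT arrays (horizontal axis), relative to the mean of the 8 arrays; colour gives the time, circles pool 1 and triangles pool 2. For each gene the 4 lights-on arrays (blue) and the 4 lights-off arrays (orange and red) do not overlap; Dbp has the widest gap, with a difference of -4.10.

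Among the clock activators, Arntl was higher at lights on. It measured 6.64 and 6.35 at ZT 20, 7.44 and 7.40 at ZT 0, 4.90 and 5.57 at ZT 8, and 4.56 and 4.15 at ZT 12. All 4 lights-on pools were above all 4 lights-off pools, by 2.17 on the log2 scale or 4.49-fold (SE 0.18, adjusted p = 0.0106). Clock, which encodes the partner of BMAL1, differed by 0.82 (SE 0.11, adjusted p = 0.0877) and its arrays did not overlap either. Its 3 other probe sets differed by 0.37, 0.45 and 0.23, the arrays of the last 2 with overlap, and the mean of its probe sets by 0.47. Npas2, the alternative partner, differed by 1.60 (SE 0.24, adjusted p = 0.0887) but its sides overlapped. Its ZT 8 pools, at 7.31 and 6.67, were as high as its ZT 20 pools, at 7.32 and 6.58, while its ZT 12 pools were at 4.85 and 5.50. A second Npas2 probe set differed by 0.06. The ROR genes did not pass. Rora differed by -0.33 (adjusted p = 0.370) without overlap, and Rorb by -0.16 with overlap. Of the 5 measured activators, 1 passed higher and 0 lower.

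Among the 13 measured repressors and clock kinases, 1 passed higher and 2 lower. The REV-ERB genes were the lower pair. Nr1d1 measured 6.00 and 6.38 at ZT 20, 6.84 and 6.64 at ZT 0, 9.14 and 9.31 at ZT 8, and 8.96 and 8.92 at ZT 12. The gap between the sides was wide and each side was narrow, with a difference of -2.62 (SE 0.12, adjusted p = 0.000283), or 6.14-fold. Nr1d2 lay between 7.52 and 7.86 on the lights-on arrays and between 10.38 and 10.81 on the lights-off arrays, a 7.64-fold difference (-2.93, SE 0.11, adjusted p = 9.15e-05).

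Cry1, which encodes a cryptochrome that inhibits the activator pair, was the repressor higher at lights on. It measured 9.35 and 9.13 at ZT 20, 8.92 and 9.11 at ZT 0, 6.20 and 6.76 at ZT 8, and 8.16 and 7.85 at ZT 12. The lights-off side was itself split, with ZT 8 well below ZT 12. The difference was 1.88 (SE 0.15, adjusted p = 0.0106), or 3.69-fold. Cry2 differed the other way, by -0.50 (adjusted p = 0.283), without overlap.

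The Per genes, whose proteins partner the cryptochromes, did not pass. Per1 differed by -0.84 (SE 0.18, adjusted p = 0.200), with every lights-on pool below every lights-off pool. Per3 differed by -1.55 (SE 0.22, adjusted p = 0.0877), and its ZT 20 pools, at 6.15 and 7.07, overlapped its ZT 8 pools, at 6.97 and 6.92. The mean of the Per3 probe sets differed by -0.78. Per2 differed by -0.21 (adjusted p = 0.752), and both of its sides were split. It measured 8.82 and 8.67 at ZT 20 against 7.34 and 7.98 at ZT 0, and 7.48 and 7.99 at ZT 8 against 9.21 and 8.97 at ZT 12. The remaining members lay between -0.59 and 0.06, and their arrays overlapped. Ciart, a further inhibitor of the activator pair, differed by -0.55, Bhlhe40 by -0.26 and Bhlhe41 by 0.06. The kinase genes Csnk1d and Csnk1e differed by 0.03 and 0.02, and the ubiquitin ligase gene Fbxl21 by -0.59.

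Of the PAR bZIP genes and Nfil3, Dbp and Tef passed, both lower at lights on. Dbp measured 8.05 and 8.30 at ZT 20, 8.45 and 7.87 at ZT 0, 11.94 and 12.09 at ZT 8, and 12.49 and 12.56 at ZT 12. Its lights-off pools were 17.2-fold above its lights-on pools (difference -4.10, SE 0.15, adjusted p = 9.15e-05). A second Dbp probe set differed by -4.00. Tef differed by -1.13 (SE 0.12, adjusted p = 0.0341), and its highest lights-on array, 9.04, was below its lowest lights-off array, 9.34. Hlf differed by -0.50 (adjusted p = 0.261), with its ZT 8 pools, at 7.89 and 7.86, inside the range of its lights-on pools. Nfil3 was the only one of the 4 with a positive difference, 2.04 (SE 0.41, adjusted p = 0.179). Its arrays did not overlap, but its ZT 12 pools were far apart, at 5.04 and 7.01.

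**Figure D3:**
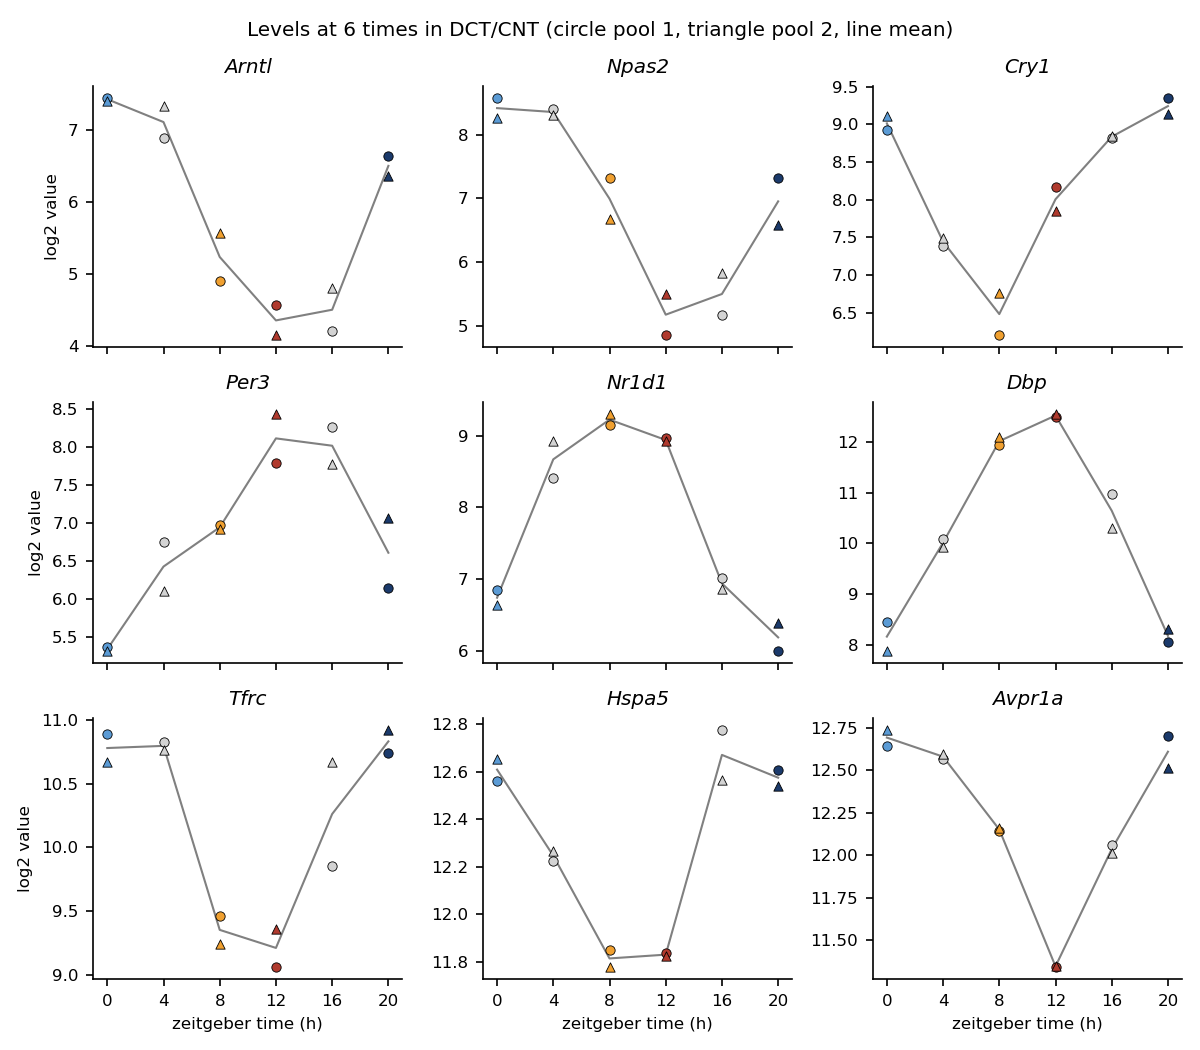
Log2 values of 9 genes in DCT/CNT (vertical axes, each with its own range) at the 6 zeitgeber times (horizontal axis); circles are pool 1, triangles pool 2, the line joins the means, and grey points are the ZT 4 and ZT 16 pools, which are not in the comparison. Nr1d1 and Dbp are high at ZT 8 and ZT 12 and low at ZT 20 and ZT 0, whereas Cry1 and Npas2 differ between ZT 8 and ZT 12.

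The times left out of the comparison show on which flank of its course each gene was sampled. At ZT 16 Nr1d1 was back at 7.01 and 6.87, near its lights-on values, while Dbp was still at 10.98 and 10.31 and Per3 at 8.26 and 7.77. At ZT 4 Arntl and Npas2 were still high, at 6.89 and 7.32 and at 8.40 and 8.31, whereas Cry1 had dropped to 7.39 and 7.50. The ZT 0 minus ZT 20 step and the ZT 12 minus ZT 8 step each gave 0 calls with limma (0%), with 1400 (7.69%) and 1472 genes (8.09%) at an unadjusted p under 0.05. The largest of these steps among the clock genes was that of Npas2 from ZT 8 to ZT 12, -1.82 (adjusted p = 0.227).

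The windows around the annotated starts of the called clock genes were read from RefSeq (GRCm38.p6, 250 bases before to 50 after the start), and those of Arntl, Cry1 and Tef are shown because they hold the motif through which the loop described above acts. Capitals mark the E-box, CACGTG, in Cry1 and Tef, and the ROR element, TAGGTCA or TGGGTCA, in Arntl. Both strands were searched. The sequences run 5′ to 3′ on the strand of the gene, at chr7:113207261-113207560 (plus strand), chr10:85185005-85185304 (minus strand) and chr15:81802423-81802722 (plus strand).

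Arntl: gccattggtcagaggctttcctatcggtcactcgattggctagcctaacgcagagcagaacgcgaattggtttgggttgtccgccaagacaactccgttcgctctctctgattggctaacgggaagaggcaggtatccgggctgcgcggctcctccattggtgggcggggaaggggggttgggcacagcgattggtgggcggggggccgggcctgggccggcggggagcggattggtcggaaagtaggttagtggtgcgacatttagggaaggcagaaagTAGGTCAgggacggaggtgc
Cry1: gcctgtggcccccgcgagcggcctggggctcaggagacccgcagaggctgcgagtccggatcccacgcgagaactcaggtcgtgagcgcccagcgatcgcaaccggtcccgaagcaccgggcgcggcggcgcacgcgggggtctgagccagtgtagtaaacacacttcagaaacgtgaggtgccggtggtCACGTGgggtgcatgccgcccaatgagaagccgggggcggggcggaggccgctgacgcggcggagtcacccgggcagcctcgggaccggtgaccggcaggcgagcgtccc
Tef: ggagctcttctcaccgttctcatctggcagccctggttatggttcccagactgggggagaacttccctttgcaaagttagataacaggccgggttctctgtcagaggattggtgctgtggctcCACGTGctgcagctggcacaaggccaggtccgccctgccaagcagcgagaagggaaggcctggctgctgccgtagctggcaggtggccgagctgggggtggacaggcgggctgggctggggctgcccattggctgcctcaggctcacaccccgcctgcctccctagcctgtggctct

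The same windows were available for 14453 of the measured genes, of which 1479 (10.2%) held the E-box and 981 (6.79%) the ROR element. Of the 22 clock genes of the lists above, 19 had a window, and 5 held the E-box (26.3%) and 2 the ROR element (10.5%). The D-box, TTATGTAA or TTACGTAA, was in the windows of 147 genes (1.02%), and among the clock genes in that of Per3. No window of Dbp, Nr1d1 or Nr1d2 held any of these letters, which says only that they are not within these windows.

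Sphk2, which encodes a sphingosine kinase, followed Dbp closely. It measured 7.55 and 7.73 at ZT 20, 7.83 and 7.43 at ZT 0, 11.04 and 11.18 at ZT 8, and 11.71 and 11.78 at ZT 12 (difference -3.79, SE 0.12, adjusted p = 7.78e-05). Its second probe set differed by 0.22, in the other direction, and the mean of both by -1.79. In the RefSeq annotation Sphk2 and Dbp overlap and lie on opposite strands. Sphk2 is therefore given as uncertain, since signal from the ends of the neighbouring genes could not be told apart here.

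Among the called genes outside the 3 clock lists, Tfrc, the transferrin receptor that takes up iron, had the largest positive difference. It measured 10.74 and 10.92 at ZT 20, 10.88 and 10.67 at ZT 0, 9.47 and 9.24 at ZT 8, and 9.06 and 9.37 at ZT 12. Each side was narrow and the lights-on pools were 2.87-fold higher (difference 1.52, SE 0.12, adjusted p = 0.0106). Its 5 other probe sets differed by 1.36 to 1.73. Of the 12 measured genes of iron uptake and storage, 1 passed higher and 0 lower. Slc40a1, the iron exporter ferroportin, had the opposite sign, -0.76 (SE 0.11, adjusted p = 0.0877), and its arrays did not overlap. The iron importer gene Slc11a2 differed by 0.46 with overlap, and its other probe sets by -0.25, 0.04 and 0.17. Fbxl5, an iron sensor, differed by -0.17 with overlap.

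Avpr1a encodes the V1a vasopressin receptor, which signals through calcium. It measured 12.70 and 12.51 at ZT 20, 12.64 and 12.74 at ZT 0, 12.14 and 12.16 at ZT 8, and 11.34 and 11.35 at ZT 12. The lights-on pools were higher by 0.90 (SE 0.09, adjusted p = 0.0288), and most of that gap came from ZT 12. Without the ZT 12 arrays the difference was 0.50, and without the ZT 8 arrays it was 1.30. Avpr2, the V2 receptor that acts through cyclic AMP, had a difference of 0.69 (SE 0.10, adjusted p = 0.0877), and its lowest lights-on array, 10.11, lay above its highest lights-off array, 9.60. Of the 20 measured genes of water transport and the vasopressin response, 1 passed higher and 0 lower, and 4 did not overlap, all higher, which is 20% of the list against 3.78% of all genes. The list's median difference was 0.08 against 0.01.

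Lonrf3, a RING finger gene, measured 7.15 and 7.02 at ZT 20, 7.62 and 8.005 at ZT 0, 6.12 and 5.97 at ZT 8, and 6.26 and 6.22 at ZT 12. It was 2.47-fold higher at lights on (1.30, SE 0.11, adjusted p = 0.0155), and highest at ZT 0. Of 9 called-higher genes with a promoter window, 2 held the E-box (22.2%), Cry1 and Lonrf3. Of 11 called-lower genes 1 did (9.09%), Tef, and over all genes the share was 10.2%. Counts this small do not tell the called genes apart from all genes. Apart from the ER chaperone genes Sdf2l1 and Hspa5, the remaining genes higher at lights on differed by 0.75 to 0.88. Ces1d, a carboxylesterase of lipid and drug metabolism, differed by 0.87 (adjusted p = 0.0341), Tnfaip2, a gene induced by tumour necrosis factor, by 0.76 (adjusted p = 0.0446) and Tspyl4, a nucleosome assembly protein relative, by 0.75 (adjusted p = 0.0361). The transcript 2610027K06Rik, which the rule for named genes leaves out, differed by 0.88 (adjusted p = 0.0288).

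Among the genes lower at lights on, Ranbp3l, a Ran-binding protein gene, measured 5.91 and 6.15 at ZT 20, 5.45 and 5.79 at ZT 0, 7.70 and 8.21 at ZT 8, and 6.93 and 7.57 at ZT 12. The lights-off pools were 3.43-fold higher (-1.78, SE 0.19, adjusted p = 0.0341). A second probe set differed by -0.79. Slc6a9, the glycine transporter GLYT1, lay between 6.54 and 7.28 on the lights-on arrays and between 8.17 and 8.69 on the lights-off arrays (-1.44, SE 0.17, adjusted p = 0.0407). Its second probe set differed by -0.36, and the mean of both by -0.90. Frat2, which encodes an inhibitor of the kinase GSK3, differed by -0.93 (adjusted p = 0.0296).

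For Satb1, Rassf4 and Dnm3 the call rests on 1 probe set each. Satb1, a chromatin organiser, differed by -0.77 (adjusted p = 0.0381). Its 4 other probe sets differed by -0.73, -0.07, -0.02 and 0.31. Rassf4, a Ras association domain gene, differed by -0.91 (adjusted p = 0.0358), and its 2 other probe sets by -0.01 and -0.39. Dnm3, a dynamin that cuts membrane vesicles, differed by -0.73 (adjusted p = 0.0460), and its 4 other probe sets lay between -0.01 and 0.56. With the mean of its probe sets the sign of Dnm3 turned, to 0.06. Its difference came from ZT 12, where it measured 6.64 and 6.58. At ZT 8 it was at 5.50 on both arrays, and the lights-on arrays lay between 5.26 and 5.40.

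Hspa5 and Sdf2l1, which serve the endoplasmic reticulum (ER), the compartment in which membrane and secreted proteins fold, were higher at lights on. Of the 26 measured genes of the unfolded protein response and ER chaperone list, 2 passed higher and 0 lower. The arrays of 11 did not overlap, all higher, which is 42.3% of the list against 3.78% of all genes. The signs were positive for 21 of 26, and the median difference was 0.24 against 0.01 over all genes. With 24 arrays in the fit 8 of the 26 passed, all higher, against 254 of 18194 genes (1.4%). The median stayed between 0.19 and 0.33 in every alternative fit run, while the number called ranged from 0 to 8.

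Hspa5 encodes BiP, the main ER chaperone and the sensor partner of the unfolded protein response. It measured 12.61 and 12.54 at ZT 20, 12.56 and 12.65 at ZT 0, 11.85 and 11.78 at ZT 8, and 11.84 and 11.82 at ZT 12. Each side was narrow and the sides were well apart, with a difference of 0.77 (SE 0.09, adjusted p = 0.0358). Its other probe sets differed by 0.89 and 0.39. The ER stress response element (CCAAT, then 9 bases of any kind, then CCACG) is marked in capitals in its window at chr2:34771840-34772139 (plus strand). The window is shown because Hspa5 is the called member of the list that holds this motif.

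Hspa5: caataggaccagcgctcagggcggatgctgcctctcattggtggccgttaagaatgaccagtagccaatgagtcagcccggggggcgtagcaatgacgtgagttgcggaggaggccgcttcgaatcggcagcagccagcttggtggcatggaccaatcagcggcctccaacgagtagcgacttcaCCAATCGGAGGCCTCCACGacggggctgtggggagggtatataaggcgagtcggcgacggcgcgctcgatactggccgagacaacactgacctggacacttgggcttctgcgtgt

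The element was in the windows of 9 of the 22 list members with a window (40.9%), and of 20 of 14453 measured genes (0.138%). The 9 are part of the 20. These shares describe a list chosen by function and say nothing about its difference between the sides. Sdf2l1, the other called member, was not among the 9. Sdf2l1, a partner of ER chaperone complexes, had the largest difference of the list. It measured 8.87 and 8.30 at ZT 20, 8.39 and 8.57 at ZT 0, 7.37 and 7.31 at ZT 8, and 6.87 and 6.91 at ZT 12, a 2.67-fold gap (1.42, SE 0.14, adjusted p = 0.0288). Manf, a secreted factor retained in the ER, differed by 0.99 (SE 0.17, adjusted p = 0.114), and Pdia6, a disulphide isomerase, by 0.56 (SE 0.10, adjusted p = 0.131), both without overlap. The mean of the Pdia6 probe sets differed by 0.37.

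**Figure D4:**
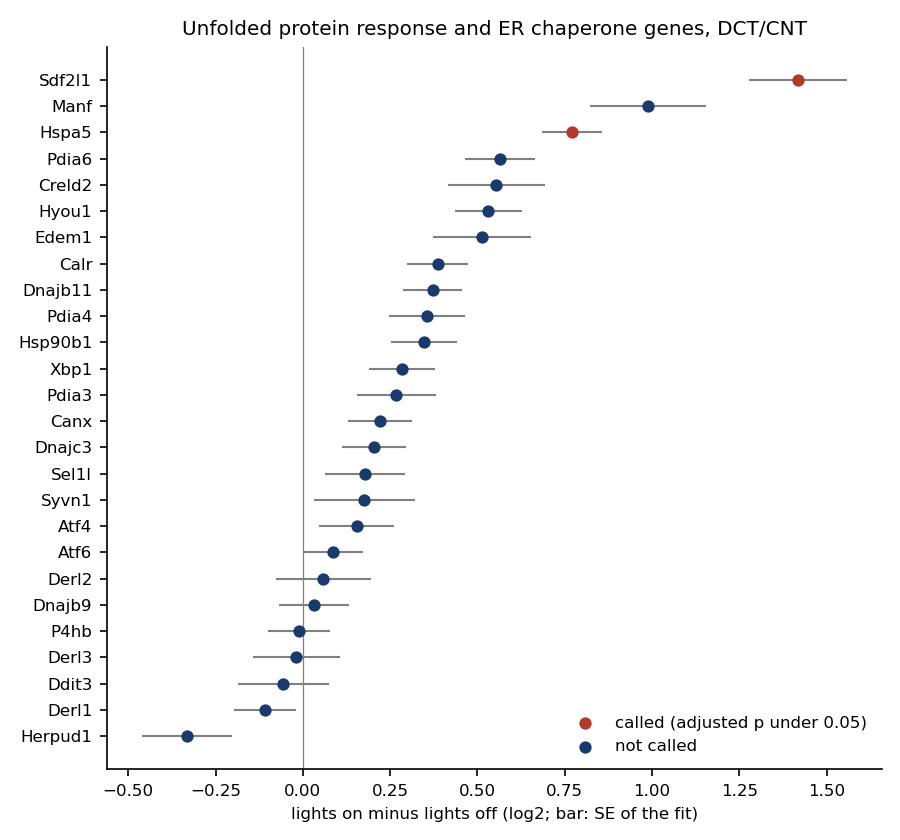
Lights on minus lights off in DCT/CNT (log2, horizontal axis) for the 26 measured genes of the unfolded protein response and ER chaperone list; bars are standard errors of the limma fit, and red marks the genes at an adjusted p under 0.05. Sdf2l1 and Hspa5 passed, at 1.42 and 0.77, and 21 of the 26 differences are above 0.

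Other lists of protein handling held no call with limma, and 6 heat shock, 4 ER translocation, 2 proteasome and 4 amino acid response genes had an unadjusted p under 0.05, which 10.6% of all genes did. Of 20 cytosolic and mitochondrial heat shock chaperones, 0 passed, 8 did not overlap, all higher (40% against 3.78% of all genes), and the median was 0.15 against 0.01. Cryab, a small heat shock protein, differed by 0.39, Hsph1, an exchange factor, by 0.32, Chordc1, a co-chaperone of HSP90, by 0.29 and Hspe1, the mitochondrial co-chaperonin, by 0.29, with adjusted p between 0.259 and 0.366. The heat shock element (GAA, TTC and GAA with 2 bases of any kind between each) was in the windows of 4 of 16 members (25%) and of 88 of all measured genes (0.609%). Here too the share describes the list and not its difference between the sides. Of 28 genes of ER translocation and early secretory transport, 0 passed and 2 did not overlap, both higher (7.14% against 3.78%), with a median of 0.06. These were Spcs2, a signal peptidase subunit, at 0.34 and Sec61b, a channel subunit, at 0.31, and Ostc of the oligosaccharyltransferase overlapped at 0.40. Of 26 proteasome subunits 0 passed, 3 did not overlap, all higher (11.5% against 3.78%), and the median was 0.05. Psmb7 at 0.31 and Psmd14 at 0.25 were among those 3. In the amino acid response list of 20, 0 passed. The synthetase genes Wars, Eprs and Iars differed by 0.58, 0.35 and 0.33, and the transporter gene Slc7a5 by -0.56.

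Glucocorticoid is the adrenal hormone that in mice peaks near lights off. Of 20 measured genes known to respond to it, 0 passed limma, 10 had an unadjusted p under 0.05 (10.6% of all genes did), and the median was -0.20. The arrays of 1 did not overlap higher and of 4 lower, against 3.78% and 2.72% of all genes. Zbtb16, a zinc finger repressor, measured 7.78 and 6.77 at ZT 20, 6.08 and 6.23 at ZT 0, 8.04 and 8.25 at ZT 8, and 8.86 and 8.22 at ZT 12 (-1.63, SE 0.24, adjusted p = 0.0887). The metallothionein genes Mt2 and Mt1, whose proteins bind zinc, differed by -0.97 (adjusted p = 0.0887) and -0.51 (adjusted p = 0.155). Per1, also a clock gene, was the fourth of the lower genes. Ddit4, an inhibitor of the growth kinase mTORC1, ran the other way, at 0.75 (adjusted p = 0.0938).

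Of the 25 immediate early genes, which respond to stimulation and to tissue handling, 0 passed limma, 3 had an unadjusted p under 0.05, 1 did not overlap (4% against 6.5% of all genes) and the median was -0.08. That gene was Maff, at -0.74 (adjusted p = 0.213). Dusp1, Klf6 and Fosl2 differed by -0.43, -0.32 and -0.23 and overlapped. Cirbp, the measured gene of the 2 cold-inducible RNA-binding proteins listed, lay between 8.27 and 8.89 at lights on and between 9.09 and 10.28 at lights off (-1.03, SE 0.26, adjusted p = 0.268). Its ZT 12 pools were 9.09 and 10.28.

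The transport genes of these segments gave no call. Of the 19 measured DCT and CNT markers 0 passed limma, 5 had an unadjusted p under 0.05 (10.6% of all genes did), 3 did not overlap, all higher (15.8% against 3.78%), and the median was 0.13, in a list whose mean differed between the pools as described above. Slc8a1, the sodium-calcium exchanger of the CNT, measured 10.66 and 11.15 at ZT 20, 10.88 and 10.83 at ZT 0, 10.15 and 10.14 at ZT 8, and 9.96 and 9.85 at ZT 12. All lights-on pools were above all lights-off pools (0.86, SE 0.12, adjusted p = 0.0887), and its 3 other probe sets differed by 0.83, 0.84 and -0.05. Kl, the Klotho co-receptor for the phosphate hormone FGF23, differed by 0.40 and Calb1, the calcium-binding calbindin, by 0.26, both without overlap. Trpm6, the magnesium channel, differed by 0.93 (adjusted p = 0.254), with overlap. Its ZT 12 pools were far apart, at 8.52 and 9.25.

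Among 12 regulators of the sodium-chloride cotransporter 0 passed limma and 1 had an unadjusted p under 0.05, which 10.6% of all genes did. The arrays of 1 did not overlap (8.33% against 6.5% of all genes), and the median was 0.05. The kinase gene Wnk4 differed by 0.39 without overlap, Wnk1 by 0.21, Sgk1 by -0.24 and Ppp3ca, a calcineurin subunit, by -0.23. Among 17 genes of principal cell sodium and potassium transport 0 passed limma and 4 had an unadjusted p under 0.05, which 10.6% of all genes did. The arrays of 3 did not overlap (17.65% against 6.5% of all genes), and the median was -0.01. The potassium channel gene Kcnj1 differed by 0.31 and Scnn1a, the alpha subunit of the epithelial sodium channel, by 0.30, both without overlap. Usp2, a clock-controlled deubiquitinase, differed by -0.45, and Tsc22d3 (GILZ), a glucocorticoid target, by 0.36, both with overlap. The other Tsc22d3 probe sets differed by 0.07, 0.07 and -0.35. The mean of probe sets differed by 0.04 for Tsc22d3 and by -0.29 for Usp2. Usp2 was highest at ZT 12, with 10.72 and 10.95 against 9.92 and 9.87 at ZT 8. In the vasopressin list, Adcy3 differed by 0.25 and Pde4d by 0.27, and the second Pde4d probe set by -0.25.

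The intercalated cell list and the list of endothelin, prostaglandin and nitric oxide signalling gave no calls with limma, and 2 genes of each had an unadjusted p under 0.05. Over all genes 10.6% did. The arrays of 3 intercalated cell genes (15.8%) and 2 signalling genes (15.4%) did not overlap, against 6.5% of all genes. Of 19 intercalated cell genes, which handle acid and base, 13 had negative differences and the median was -0.09. The channel gene Aqp6 differed by -0.34 without overlap, the bicarbonate exchanger gene Slc4a9 by -0.27, the factor gene Foxi1 by -0.27 and the proton pump gene Atp6v1c2 by -0.21. Of the 13 signalling genes, Ptges, a prostaglandin E synthase, differed by 0.27 and Ece1, the endothelin-converting enzyme, by -0.28, both without overlap, and the median was -0.01.

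The lipid lists gave no call with limma, and 5 cholesterol synthesis, 5 fatty acid synthesis and 4 fatty acid oxidation genes had an unadjusted p under 0.05. Over all genes 10.6% did. The arrays of 2 cholesterol synthesis (11.1%), 4 fatty acid synthesis (26.7%) and 2 fatty acid oxidation genes (10%) did not overlap, against 6.5% of all genes. Of 18 cholesterol synthesis genes 0 passed, 14 had positive differences and the median was 0.18. Msmo1 differed by 0.67 (adjusted p = 0.213), Sqle by 0.50, Idi1 by 0.35 and Lss by 0.34. The second Msmo1 probe set differed by -0.08, and the mean of both by 0.29. Of 15 fatty acid synthesis genes 0 passed. Scd2, a desaturase, lay between 11.91 and 12.22 at lights on and between 11.37 and 11.49 at lights off (0.62, SE 0.09, adjusted p = 0.0877). The elongase gene Elovl5 differed by 0.40 and Gpam, of triglyceride synthesis, by -0.29. Of 20 fatty acid oxidation genes 0 passed and 14 had negative differences, among them Acaa2 at -0.39 and Acadvl at -0.21, both without overlap. The receptor genes Ppard and Ppara differed by 0.61 and 0.58, with overlap, and the means of their probe sets by 0.41 and 0.20.

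Of 17 measured genes of NAD synthesis and sirtuins 0 passed limma and 4 had an unadjusted p under 0.05, which 10.6% of all genes did. The arrays of 2 did not overlap (11.8% against 6.5% of all genes). Parp1, which consumes NAD, differed by 0.36 and Nnmt by 0.26, both without overlap, and Nmnat1 by 0.32. In the xenobiotic list of 17, which holds targets of the PAR bZIP factors, Ces1d was the 1 call, and Gstm1 differed by -0.23 without overlap. The list's median was 0.22, with the opposite sign to Dbp and Tef. Its mean was 7.07 and 7.22 at ZT 8 and 7.63 and 7.70 at ZT 12, as the proximal tubule list was low at ZT 8 and high at ZT 12. The part of those cells in the list's values was not tested.

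In 14 further genes the difference was at least 2-fold, the arrays did not overlap and limma with 24 arrays in the fit passed, though the fit on 8 did not. They were chosen after their values were seen. They include Nfil3, Zbtb16 and Cirbp. Those higher at lights on were Leo1, a subunit of the PAF1 transcription complex (1.06), the bone morphogenetic protein antagonist Grem1 (1.60), the ubiquitin ligase gene Rnf125 (1.60), the myosin gene Myo5a (1.17), Rhobtb1 (1.16) and the cytolinker gene Eppk1 (1.01). Those lower were Pgm2l1 (-1.39), Mfsd4b1 (-1.07), the phosphatase gene Dusp23 (-1.06), the growth factor gene Tgfb2 (-1.01) and Art5 (-1.01). With the mean of a gene's probe sets, Rhobtb1 differed by 0.70, Pgm2l1 by -0.82, Art5 by -0.51 and Tgfb2 by -0.45. Pools of a time were far apart in several of the 14. Grem1 measured 6.08 and 6.97 at ZT 0, Myo5a 6.02 and 7.17 at ZT 8 and Pgm2l1 7.10 and 8.25 at ZT 8. Tspan4, a tetraspanin of the clock output list, had a smaller difference with narrower pools, at -0.89 (SE 0.12, adjusted p = 0.0672).

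The CCD arrays of the same times show how much of this was shared with the next segment. Fitted on its own 8 arrays, CCD gave 47 calls (0.258%), of which 12 were also called, with the same sign, in DCT/CNT. That is 54.5% of the 22 and 25.5% of the 47. Of the 22 genes, 20 had the same sign in CCD. How many of all genes share their sign was not counted. None of the 22 overlapped in DCT/CNT, and 17 of them did not overlap the same way in CCD. Of all 1182 genes without overlap in DCT/CNT, 367 did not overlap the same way in CCD. In either direction, 1611 of all genes (8.85%) did not overlap in CCD. Dbp differed by -4.12 in CCD and -4.10 in DCT/CNT, Nr1d1 by -2.70 and -2.62, and Arntl by 2.40 and 2.17. Across all genes the differences of the 2 segments had a Pearson correlation of 0.44, given as a description, since genes are not independent replicates and it is not stated whether the segments came from the same animals.

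Tested directly on 16 arrays, the DCT/CNT minus CCD difference gave 0 calls with limma (0%), and 906 genes (4.98%) at an unadjusted p under 0.05. The 95% intervals show what this allows. For Dbp the segments differed by 0.02, with an interval from -0.40 to 0.43, and for Nr1d1 by 0.08 (-0.45 to 0.61). Cry1 differed by 0.51 (0.06 to 0.96), Tfrc by 0.44 (0.07 to 0.82), Sdf2l1 by 0.52 (0.14 to 0.90), Avpr1a by 0.28 (0.04 to 0.53) and Hspa5 by 0.27 (0.02 to 0.51). These unadjusted intervals lie above 0, with adjusted p between 0.964 and 0.986. The genes were picked because they were called higher in DCT/CNT, on arrays that also enter this difference. That choice alone moves such intervals upward, so they do not show a segment difference. For Per3 the segments differed by 0.87 (0.30 to 1.45) and for Npas2 by -0.93 (-1.73 to -0.14), both with a smaller change in DCT/CNT. These intervals are unadjusted too, and neither gene was called after adjustment over all genes. They were taken from 22 clock genes, and the second Npas2 probe set differed by only 0.06 in DCT/CNT. A segment difference is thus not shown for these genes either.

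Ranbp3l came closest to a call. Lights on minus lights off was -1.78 in DCT/CNT and 0.66 in CCD, so the segments differed by -2.44 (SE 0.31, interval -3.12 to -1.75, adjusted p = 0.0617). E230013L22Rik had the same adjusted p, 0.0617, with a difference of -0.84, and is named here because of that value. The result for Ranbp3l crossed the threshold in several alternative fits, with adjusted p = 0.00374 with 24 arrays and 0.0426 without CCD ZT 12 pool 2, in a range up to 0.296. Rassf4 and Dnm3 had differences of 0.09 and -0.01 in CCD, but their segment differences, -0.998 and -0.72, had an adjusted p of 0.964. The transport genes Slc8a1 and Trpm6, at 0.08 and -0.08 in CCD, had segment differences of 0.78 (0.26 to 1.31) and 1.01 (0.43 to 1.58), with adjusted p = 0.964 and 0.951. Rassf4, Dnm3, Slc8a1 and Trpm6 were likewise picked by their DCT/CNT values.

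**Figure D5:**
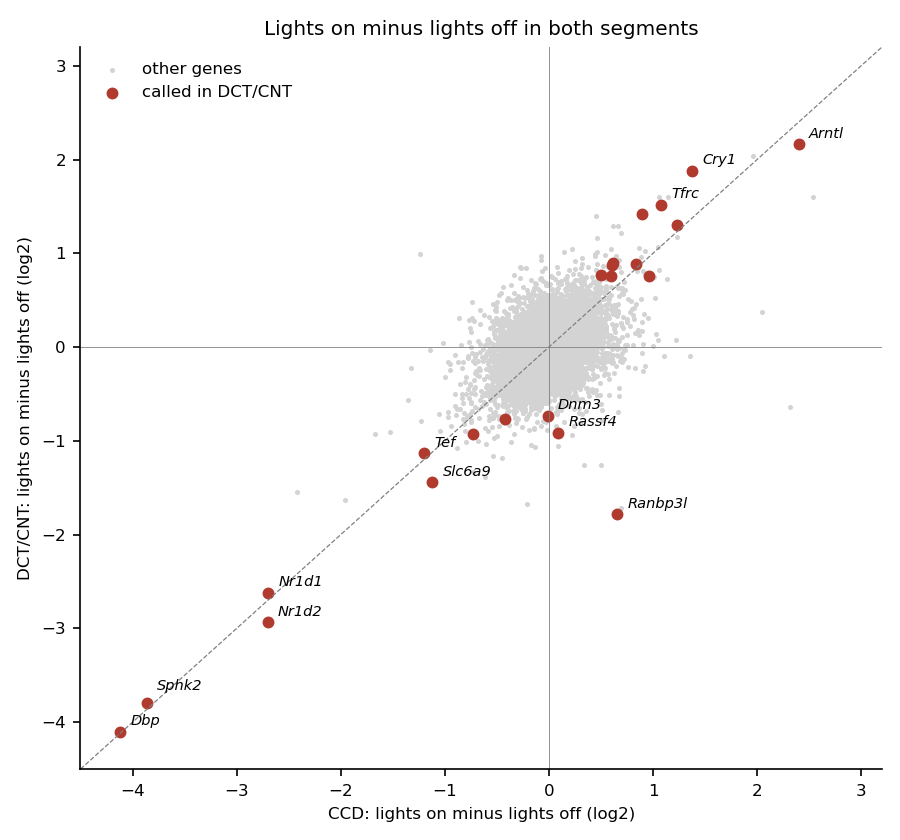
Lights on minus lights off (log2) in CCD (horizontal axis) and DCT/CNT (vertical axis) for 18194 genes; red points are the 22 called in DCT/CNT, and the dashed line marks equal differences. Dbp, Sphk2, Nr1d1, Nr1d2 and Arntl lie near the line, while Ranbp3l lies at 0.66 in CCD and -1.78 in DCT/CNT.

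The ER chaperone list had a median of 0.19 in CCD. There 12 of its 26 genes did not overlap higher and 1 lower, against 770 and 841 of all 18194 genes. Of its 11 genes without overlap in DCT/CNT, 10 were among those 12. Over all genes, 367 of the 1182 without overlap in DCT/CNT did not overlap the same way in CCD. In 17 of the 26 the sign was the same and the DCT/CNT difference the larger, against 6147 of all 18194 genes. For the heat shock chaperones the CCD median was 0.10, and for the glucocorticoid list it was -0.21. The difference between segments was not called for any member of these lists.

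Lists of cells that were not dissected and of housekeeping functions gave 0 calls with limma. An unadjusted p under 0.05, which 10.6% of all genes had, was reached by 0 to 3 genes of each. It was reached by 2 of 22 proximal tubule, 2 of 10 thick ascending limb, 1 of 6 podocyte and 3 of 12 endothelial genes. The same held for 2 of 12 smooth muscle, mesangium and fibroblast, 2 of 15 leukocyte and 0 of 2 erythrocyte genes. Among housekeeping lists the numbers were 0 of 30 for oxidative phosphorylation, 2 of 16 for ribosomal proteins and 1 of 19 each for S phase and mitosis. Of 22 proximal tubule genes 0 did not overlap, against 6.5% of all genes. The sodium-lactate transporter gene Slc5a12 measured 5.04 and 6.79 at ZT 20, 4.64 and 4.39 at ZT 0, 4.43 and 5.38 at ZT 8, and 7.95 and 8.44 at ZT 12. It was high at ZT 12. Slc5a2, the glucose transporter of the early proximal tubule, differed by -0.44, and Slc22a6 by 0.68 with overlap. Of the 22 differences 12 were positive and 10 negative, with a median of 0.07. Of 10 thick ascending limb genes 1 did not overlap (10% against 6.5% of all genes), the calcium-sensing receptor gene Casr, at 0.32. The list's mean ranged from 6.54 to 6.99 at lights on and from 6.38 to 6.85 at lights off. The medians were 0.07 for 12 endothelial genes, 0.15 for 12 genes of smooth muscle, mesangium and fibroblasts, -0.16 for 15 leukocyte genes, -0.12 for 6 podocyte genes and 0.10 for 2 erythrocyte genes. They were 0.03 for 30 oxidative phosphorylation genes, -0.06 for 16 ribosomal protein genes, -0.02 for 19 S phase genes and 0.00 for 19 genes of mitosis. The arrays of 3 oxidative phosphorylation genes did not overlap, all higher (10% of the list against 3.78% of all genes). In the podocyte (16.7%), smooth muscle (8.33%), leukocyte (6.67%) and S phase lists (5.26%) 1 gene each did not overlap. In the endothelial, erythrocyte, ribosomal protein and mitosis lists 0 did not.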

How the data were processed

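The authors' deposited table holds RMA values (robust multi-array average, per the submitters' processing notes) on the log2 scale for 45101 probe sets and 24 arrays. The version used and whether both segments were normalised together are not given in the sources used here. Per the labels, the amplification started from 10 ng of RNA. Probe sets were named through the platform annotation. Of these, 34958 named 1 symbol, 932 several and 9211 none, and 34754 of the first matched the RefSeq table (GRCm38.p6). More than 1 probe set was available for 9012 of the 18194 genes.

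limma 3.58.1 in R 4.3.3 fitted 1 mean for each of 4 times on 8 arrays (4 residual and 3.29 prior degrees of freedom), with Benjamini-Hochberg adjustment over all genes and a threshold of 0.05. CCD and the 16-array segment difference were fitted in the same way. The number of arrays limits the precision. Array medians lay between 5.80 and 5.89, pools of a time correlated at 0.988 to 0.991, and no batch is labelled. The fit was tested on simulated data.

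The comparison and 35 gene lists (598 genes, 546 measured; the others were not analysed here) were chosen with earlier results of these data known. Genes were named by rule: the clock lists in full, up to 15 called genes in each direction with no overlap (leaving out clones without a stated function), and up to 4 genes of each other list by adjusted p; exceptions are stated. A motif was counted once per gene.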

Additional observations from a re-analysis of the deposited data

Results flagged for a closer look

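Pde4d, a phosphodiesterase gene of the vasopressin list, had a lights on minus lights off difference of 0.27 in DCT/CNT and of -0.31 in CCD. On this probe set the arrays of the sides did not overlap in either segment, and they lay in opposite orders. The other Pde4d probe set differed by -0.25 in DCT/CNT, also without overlap, and the mean of both by 0.0126, so the direction in DCT/CNT rests on the probe set chosen. The segments differed by 0.58 (95% interval 0.32 to 0.85), and the test of this difference over all genes gave an adjusted p of 0.940. Groups of 2 pools are too small for a search for single outlying arrays.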

How the results depend on the processing

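The number of called genes moved with the fit, and the cause was not tested. Against 22 calls, limma gave 61 with 12 arrays in the fit, 183 with 16 and 438 with 24 (the 16-array fit and the Slc12a3 and Pvalb covariate were chosen after seeing the data), 149 with a trended and robust variance and 40 of 10915 genes with a mean above 6. It gave 9 with the proximal tubule mean as a covariate, 5 with that of the thick ascending limb, 9 with that of Slc12a3 and Pvalb, 4 to 9 without 1 array, 4 without ZT 20 or without ZT 0, and 5 without ZT 8 or without ZT 12. Equal medians, quantile and cyclic loess normalisation, array weights, the mean of a gene's probe sets and each probe set on its own gave 23 to 26, but the mean of probe sets held 18 of the 22 and each probe set on its own 14. Of 77 named genes with more than 1 probe set, the mean of probe sets moved the difference of 28 by over 1.5 times, 2 to a larger value and 26 to a smaller one or to the opposite sign; of the called genes these were Dnm3, Rassf4 (-0.44), Satb1 (-0.26), Slc6a9 and Sphk2. The pool numbers did not pair the arrays, since deviations of same-numbered pools correlated at -0.06 to 0.12 over 6 pairs of times. The replicate block (pool number) gave 11 calls, 10 of them among the 22, and the additional gene was Rnf125.

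For the segment difference, with 0 calls, the alternatives gave 2 calls with 24 arrays or with the filter on dim genes (Ranbp3l and E230013L22Rik), and 1 with the replicate block, quantile normalisation or the trended and robust variance (Ranbp3l each time). Leaving out 1 array gave 0 to 1.

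Of 3124 alternative values of 116 named genes, 3103 kept their sign. In part of these fits the difference could not move, so the sign was fixed beforehand. These were the fits with 12, 16 or 24 arrays, the replicate block, the filter on dim genes and the trended and robust variance. Array weights and each probe set on its own also left the differences unchanged. The reversed values were 1 of Dnm3, a called gene (0.0635 with the mean of probe sets), and 20 of genes that were not called. Bhlhe41 gave -0.0565 with the mean of probe sets, -0.0201 to 0.147 without single arrays and -0.16 without ZT 8. Csnk1d gave -0.0150 to 0.0765 without single arrays, -0.0209 without ZT 20 and -0.0469 without ZT 12. Csnk1e gave -0.0049 with the mean of probe sets, -0.0701 to 0.118 without single arrays and -0.24 without ZT 8. Without ZT 12, Hlf gave 0.15, Per2 0.47, Slc5a12 0.31 and Usp2 0.0206. Per2 gave 0.33 without ZT 0, and Rorb 0.14 without ZT 20 and 0.14 without ZT 8. Each side rests on 2 times and 4 pools, so a gene that changes within a side is poorly described by its mean.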
